A study of Mus musculus with 167 samples.

Results

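A set of 10 genes of the liver's collagen-producing and contractile cells were followed across livers of Huntington's disease knock-in mice: the fibrillar collagen genes Col1a1, Col1a2 and Col3a1, the basement membrane collagen genes Col4a1 and Col4a2, the stellate cell genes Reln, Lrat, Des and Pdgfrb, and the smooth muscle actin gene Acta2. The genes were a fixed list matched by symbol in the deposited count table, which gave 10 of 39179 gene IDs. All 10 passed the low-count filter in every comparison, and no library had 0 counts for any of them.

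Each mouse carried 1 knock-in allele of Htt with 20, 80, 92, 111, 140 or 175 CAG repeats (Q20 to Q175) beside 1 normal allele, on the strain given as C57BL/6, or was a wild-type littermate housed with Q20 mice. Polyadenylated RNA from whole, flash-frozen liver was sequenced at 2, 6 and 10 months of age, with 1 library per sample. The 21 groups of genotype and age held 8 libraries each, 4 from females and 4 from males, except Q80 at 2 months (labelled 3 females and 5 males) and Q80 at 10 months (4 females and 3 males). Libraries are named here by genotype, age, sex (F or M) and replicate number. Q20, the shortest knock-in allele, was the control for the longer ones, so all comparisons with Q20 at one age share the same 8 libraries. The knock-in allele is present in every cell type of these mice, and whole liver was measured, so fewer cells of a type and less RNA per cell cannot be told apart.

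Hepatic stellate cells lie between the hepatocytes and the sinusoidal endothelium, where in their quiescent state they store vitamin A as retinyl esters. After injury they can turn into contractile cells that express smooth muscle actin and lay down fibrillar collagen, the process behind liver fibrosis. Portal fibroblasts and the smooth muscle of vessels, bile ducts and gallbladder also make several of these proteins, so in whole liver these transcripts have more than 1 possible source.

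The fibrillar collagen genes encode the chains of type I collagen (Col1a1 at chr11:94936224-94953042 and Col1a2 at chr6:4504814-4541544) and of type III collagen (Col3a1 at chr1:45311538-45349706). Col4a1 (chr8:11198423-11312826, minus strand) and Col4a2 (chr8:11312805-11449287, plus strand) encode the main chains of type IV collagen of basement membranes. They lie head to head, and their annotated starts overlap by 22 bases. Reln (chr5:21884454-22344702) encodes the secreted glycoprotein reelin, Lrat (chr3:82892579-82903973) the enzyme that esterifies retinol for storage, and Des (chr1:75360329-75368579) the muscle intermediate filament desmin. Acta2 (chr19:34241090-34255590) encodes alpha smooth muscle actin, and Pdgfrb encodes a receptor for platelet-derived growth factor. The positions given are those of the GENCODE M21 annotation of mouse build GRCm38; the deposited tables carry none.

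Promoter windows in RefSeq's GRCm38.p6 tables, running from 250 bases before to 50 bases after the start, were found for 8 of the 10 genes (not Col1a1 or Pdgfrb). They were searched on both strands for 4 motifs. Of all 32851 RefSeq promoter windows of 300 bases, 13.6% hold TATAAA, 37.4% hold CCAAT and 35.7% hold GGGCGG. The CArG box, the element bound by serum response factor in muscle genes, stands in 1.63%. A CArG box was found in 0 of the 8 windows, which says only that its letters do not occur there. The windows follow RefSeq starts, which can differ from the GENCODE positions above. For Acta2, on the minus strand, the RefSeq start is 34255373 and the GENCODE start 34255590. Most of its window thus lies inside the GENCODE gene, and the sequence before that gene was mostly not searched. The Col1a2 window (RefSeq start 4505618, GENCODE start 4504814) lies wholly inside the gene. The upstream sequences of Col3a1 and Des are shown as examples of a collagen gene and a muscle gene, groups called at different ages below. Neither is typical of its group in these motifs. The windows of Col1a2, Col4a1 and Col4a2 held CCAAT and GGGCGG but no TATAAA, and that of Acta2 held none of the 4 motifs. The TATAAA of Col3a1 lies at -117 to -112 from the start. In Col3a1 (chr1:45311288-45311537, plus strand) the capitals mark TATAAA, and in Des (chr1:75360042-75360291, plus strand) they mark GGGCGG read on the minus strand.
Col3a1: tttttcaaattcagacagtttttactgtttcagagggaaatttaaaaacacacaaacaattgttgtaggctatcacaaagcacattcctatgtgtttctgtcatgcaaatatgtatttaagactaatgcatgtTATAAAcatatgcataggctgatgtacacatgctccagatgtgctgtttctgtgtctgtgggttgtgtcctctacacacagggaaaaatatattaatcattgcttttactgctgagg
Des: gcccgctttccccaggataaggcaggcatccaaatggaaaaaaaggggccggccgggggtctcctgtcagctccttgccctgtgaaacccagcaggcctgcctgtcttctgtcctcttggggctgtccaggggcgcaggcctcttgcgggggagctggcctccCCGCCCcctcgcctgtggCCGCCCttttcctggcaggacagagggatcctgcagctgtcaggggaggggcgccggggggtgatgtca

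The count totals ran from 32025244 to 57151736 per library, with a median of 38663519. The hepatocyte gene Alb had a median of 75664 CPM (counts scaled to library size with edgeR's TMM factors) and was at 0 in no library. All 12 stellate cell markers were present in every library, with Dcn at a median of 159 CPM. That list includes the members Reln, Lrat, Des and Pdgfrb. A few libraries stood apart by other markers. Krt19, a gene of bile duct and gallbladder epithelium, exceeded 10 CPM of unscaled total counts in 8 libraries (Q111 at 6 months F1, Q111 at 10 months F2, F4 and M3, Q92 at 10 months F3 and F4, Q140 at 2 months F1 and wild type at 2 months F3). Skeletal muscle genes summed to 1289 CPM in Q175 at 10 months F3 and to 35.3 CPM in F4 of that group, against 0.326 to 3.69 CPM in 149 other libraries, those named in this paragraph and the 6-month Q140 F2 and M3 and Q20 M2 left aside. Kupffer cell genes summed to 945, 925 and 1114 CPM in 3 of the 4 Q20 females at 6 months (F1, F3, F4), against at most 759 CPM in those 149. Blood RNA was high in Q175 at 10 months M4, and 1 library labelled male (Q80 at 2 months M5) did not match its label. The index names also differ. Every 6-month knock-in library with an index in its name carries another index series than the 6-month wild type and than the indexed libraries of 2 and 10 months, so age or genotype and library set cannot be told apart there.

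Per length, Reln was the most abundant of the 10 genes, with a mean of 14.0 FPKM (fragments scaled by transcript length and library depth, SD 3.53 over all libraries). Col3a1 followed with 4.89 FPKM (SD 1.82), then Col4a1 with 4.22 FPKM (SD 1.24) and Lrat with 3.74 FPKM. Col4a2 (2.96 FPKM), Col1a2 (2.26 FPKM), Acta2 (1.96 FPKM), Pdgfrb (1.64 FPKM), Des (1.40 FPKM) and Col1a1 (0.890 FPKM) came below. Only the step from Reln to Col3a1 exceeded the SD of both genes, and all the other neighbours in this order lay within the larger SD of the pair. The genes varied to very different degrees. The highest library exceeded the lowest in CPM by 90.3 times for Acta2, 22.3 times for Des and 15.3 times for Col1a1, against 3.96 times for Pdgfrb. Behind Acta2, the rarest in its lowest library, stood as few as 20 counts, while Reln had 950 to 5578 counts.

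**Figure D1:**
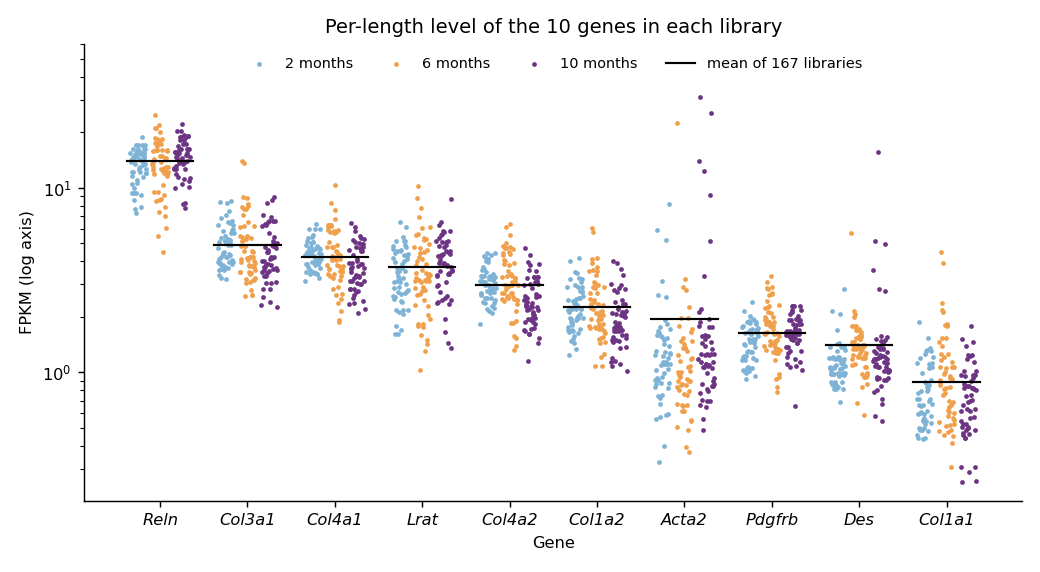
Level per length of the 10 genes in each library, in FPKM on a log axis, with 1 point per library coloured by age and the mean over all libraries as a bar. Reln lies highest, at a mean of 14.0 FPKM, and Acta2 and Des have a few libraries far above the rest, up to 30.8 FPKM for Acta2 and 15.6 FPKM for Des.

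At 2 months none of the 10 genes passed the test for a slope on repeat length. The slope on repeat length over the 48 knock-in libraries, in log2 units per 100 repeats from edgeR's quasi-likelihood test, was called in either direction for 0 of the 10, against 0.272% of all genes. The genes' median slope was -0.15, against -0.00 over all genes, and 4 of the 10 had an unadjusted p under 0.05, against 15.6% of all genes. Pdgfrb had a slope of -0.26 ± 0.08 (SE, adjusted p = 0.0871). Its levels were 7.30 to 10.9 CPM in Q20 with a median of 9.03 CPM, and 5.77 to 9.97 CPM in Q175 with a median of 6.79 CPM. The groups overlapped, with 5 of the 8 Q175 libraries below the lowest of Q20.

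Reln at 2 months had a slope of -0.26 ± 0.08 (adjusted p = 0.112). The Q20 libraries held 56.1 to 88.8 CPM with a median of 77.4 CPM, and those of Q140 35.7 to 81.3 CPM with a median of 49.8 CPM. Of the Q140 libraries 5 of 8 lay below the lowest of Q20, and the difference of -0.51 ± 0.13 on the log2 scale did not pass the test (edgeR adjusted p = 0.115). Col1a2 had a slope of -0.25 ± 0.10 (adjusted p = 0.185), while Col4a2 had a positive one of 0.14 ± 0.06 (adjusted p = 0.286). In the comparisons of single alleles with Q20 at 2 months, none of the 10 genes was called by edgeR. For Q80, Q92, Q111, Q140 and Q175, 1, 1, 2, 2 and 3 of them had an unadjusted p under 0.05. The shares of all genes with such a p were 9.06%, 7.13%, 5.97%, 13.3% and 14.3%. The share of all genes called was 0.0991% for Q80, 0.310% for Q175 and 0% for the other 3. DESeq2 called none of the 10 for Q175 either.

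Among 25 other genes of quiescent stellate cells and fibroblasts, 5 fell with repeat length at 2 months and 0 rose, with a list median of -0.19. They were Lum and Dcn, which encode small matrix proteoglycans, Ednra, an endothelin receptor, Pdgfra, another receptor for platelet-derived growth factor, and Gpc6, a glypican. Lum had a slope of -0.42 ± 0.07 (edgeR adjusted p = 0.000554), Ednra -0.35 ± 0.06, Dcn -0.25 ± 0.05 and Pdgfra -0.34 ± 0.08. None of 27 genes of fibrillar collagen assembly, 17 of the basement membrane, 15 of smooth muscle, 23 of fibrogenic signalling, 17 of retinoid handling and 7 of the reelin pathway was called. Of all genes 0.272% were called in either direction. These lists were chosen with results of the same libraries known and are no independent support. Kupffer cell markers (0 of 10 called, median -0.13) and sinusoidal endothelial markers (0 of 10, median -0.09) also had negative medians. Their part in the slopes was not tested.

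At 6 months the collagen genes, Reln and Pdgfrb had their highest group means in Q20 and Q140. The fibrillar collagen gene Col1a1 had 2.87 to 10.8 CPM in Q20 with a median of 8.17 CPM, and 7.54 to 25.7 CPM in Q140 with a median of 12.3 CPM. The medians were 3.71 CPM in Q80, 4.43 CPM in Q92, 5.42 CPM in Q111, 5.24 CPM in Q175 and 3.57 CPM in the wild type. No group was fully separate from Q20 for Col1a1. Slopes on repeat length at this age were called for 0 of the 10 genes by edgeR, against 6.27% of all genes in either direction. An unadjusted p under 0.05 was found for 1 of the 10, Reln, against 21.6% of all genes. Reln had a slope of -0.29 ± 0.14 (adjusted p = 0.213), and without the Q140 libraries, left out after seeing the data, it was -0.45 (adjusted p = 0.0287). Without the Q20 libraries its sign turned, to 0.10 (adjusted p = 0.906). DESeq2 on all libraries called 0 of the 10 slopes.

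**Figure D2:**
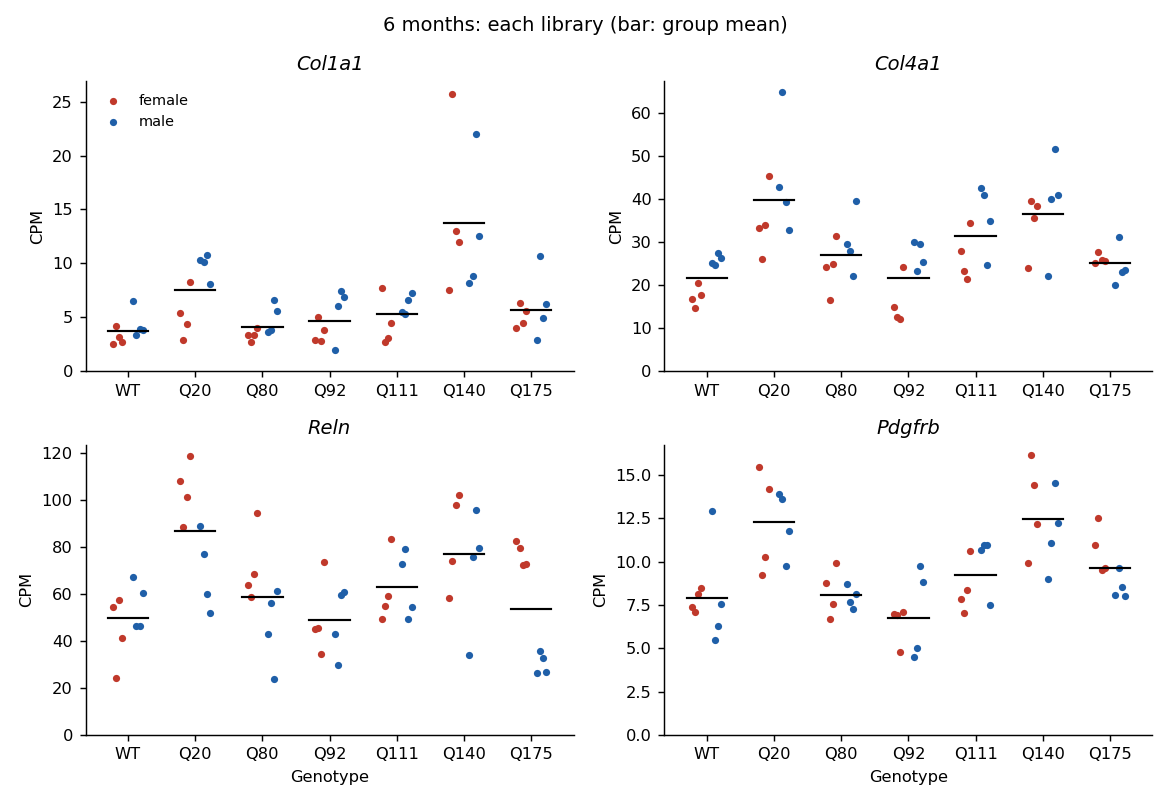
Levels of Col1a1, Col4a1, Reln and Pdgfrb at 6 months in CPM, by genotype, with 1 point per library (4 females and 4 males a group) and the group mean as a bar. Q20 and Q140 have the highest means, Col1a1 reaches 25.7 CPM in Q140, and the Reln values of the Q175 males (26.4 to 35.7 CPM) lie below those of the Q175 females.

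In Q92 at 6 months, 7 of the 10 genes were lower than in Q20 and 0 higher, against 18% of all genes called in either direction and 10.9% called lower. The fibrillar genes fell by 0.71 ± 0.26 (Col1a1), 0.74 ± 0.18 (Col1a2) and 0.71 ± 0.19 (Col3a1) on the log2 scale. Col4a1, with 26.2 to 64.9 CPM in Q20 and a median of 36.6 CPM, had 12.2 to 30.1 CPM in Q92 and a median of 23.8 CPM. Of the 8 Q92 libraries 6 lay below all of Q20, and the fall was 0.93 ± 0.16 (edgeR adjusted p = 0.000274). Its partner Col4a2 had 17.9 to 38.7 CPM in Q20 and 8.22 to 26.6 CPM in Q92, with 4 of 8 libraries below all of Q20, and fell by 0.73 ± 0.15.

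Reln and Pdgfrb moved the same way in Q92. Reln had 51.9 to 119 CPM in Q20 with a median of 88.6 CPM, and 29.9 to 73.8 CPM in Q92 with a median of 45.4 CPM. It fell by 0.81 ± 0.22 (edgeR adjusted p = 0.00937), with 5 of 8 libraries below all of Q20. On log2(FPKM + 0.1), limma gave -0.51 (adjusted p = 0.0644), so the call for Reln rests on the counts. Pdgfrb had 9.25 to 15.4 CPM in Q20 and 4.50 to 9.76 CPM in Q92, with 7 of 8 libraries below all of Q20, and fell by 0.88 ± 0.15 (edgeR adjusted p = 0.000145). Lrat, Des and Acta2 were not called. The Col1a1 call in Q92 was lost without any one of the Q20 libraries F1, F4, M1, M2 or M3 (adjusted p 0.0588 to 0.0990), with no low-count filter (adjusted p = 0.0686) and with only the 2 groups compared (adjusted p = 0.0616).

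In Q80 at 6 months, 6 of the 10 genes were lower and 0 higher, against 9.30% of all genes called in either direction and 5.58% called lower. Col1a2 had 9.99 to 19.2 CPM in Q20 with a median of 15.7 CPM and 7.77 to 11.1 CPM in Q80 with a median of 8.79 CPM. It fell by 0.75 ± 0.18 (edgeR adjusted p = 0.00848), with 6 of 8 libraries below all of Q20. Pdgfrb, with 6.67 to 9.90 CPM in Q80, fell by 0.61 ± 0.15 (adjusted p = 0.00760), with 7 of 8 below all of Q20. Col1a1 fell by 0.85 ± 0.26, Col3a1 by 0.63 ± 0.19, Col4a1 by 0.56 ± 0.16 and Col4a2 by 0.53 ± 0.15. Leaving out the Q20 female F4 left 2 of the 6 calls, Col1a2 and Pdgfrb. Without the Q20 male M1 the calls for Col1a1 and Col3a1 were lost, without M2 those for Col3a1 and Col4a1, and without M3 that for Col1a1.

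In Q175 at 6 months, 3 genes were lower than in Q20 and 0 higher, against 10.9% of all genes called in either direction and 6.45% called lower. Col4a1 had 20.0 to 31.2 CPM, with 6 of 8 libraries below all of Q20, and fell by 0.64 ± 0.16 (edgeR adjusted p = 0.00894). Col4a2, with 15.8 to 22.4 CPM, fell by 0.58 ± 0.15 (adjusted p = 0.0103). Reln fell by 0.75 ± 0.22 (adjusted p = 0.0240) and divided by sex. The 4 Q175 males had 26.4 to 35.7 CPM and the 4 females 72.4 to 82.6 CPM, while in Q20 the males had 51.9 to 88.9 CPM and the females 88.4 to 119 CPM. Within males Reln differed by -1.19 (adjusted p = 0.0221) and within females by -0.44 (adjusted p = 0.297). Whether this difference of Q175 from Q20 depended on sex was not tested. The slope over all knock-in lengths was called to depend on sex for 0 of the 10 genes, against 0.226% of all genes. The Reln call in Q175 was lost without any one of the Q175 males M1, M3 or M4 or the Q20 females F1 or F4 (adjusted p 0.0513 to 0.0744), and limma on log2(FPKM + 0.1) gave -0.43 (adjusted p = 0.179).

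In Q111 at 6 months none of the 10 genes was called by edgeR, against 1.24% of all genes in either direction. An unadjusted p under 0.05 was found for 5 of the 10, against 17.8% of all genes. DESeq2 called none of the 10 as well.

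In Q140 at 6 months 1 of the 10 genes, Col1a1, was higher than in Q20, against 5.98% of all genes called in either direction and 2.69% called higher. It rose by 0.94 ± 0.25 (edgeR adjusted p = 0.0190), with 5 of 8 libraries above all of Q20. The 2 highest libraries were F2 with 25.7 CPM and M3 with 22 CPM. Without F2, left out after seeing the data, the difference was 0.68 (adjusted p = 0.0788), and without both it was 0.53 (adjusted p = 0.195). The same 2 libraries led for Col3a1, with 75.1 and 72.1 CPM, and for Col1a2, with 30.4 and 28.2 CPM. Col3a1 had 28.7 to 75.1 CPM in Q140 against 21.8 to 43.9 CPM in Q20, a difference of 0.48 ± 0.19 that missed the threshold (adjusted p = 0.111). Des was above all Q20 libraries in 5 of 8 Q140 libraries, with a difference of 0.24 ± 0.18 (adjusted p = 0.462). Acta2, the marker of activated stellate cells, differed by -0.08 ± 0.55 (adjusted p = 0.949), with 1.44 to 3.32 CPM in Q140 against 1.01 to 5.44 CPM in Q20.

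**Figure D3:**
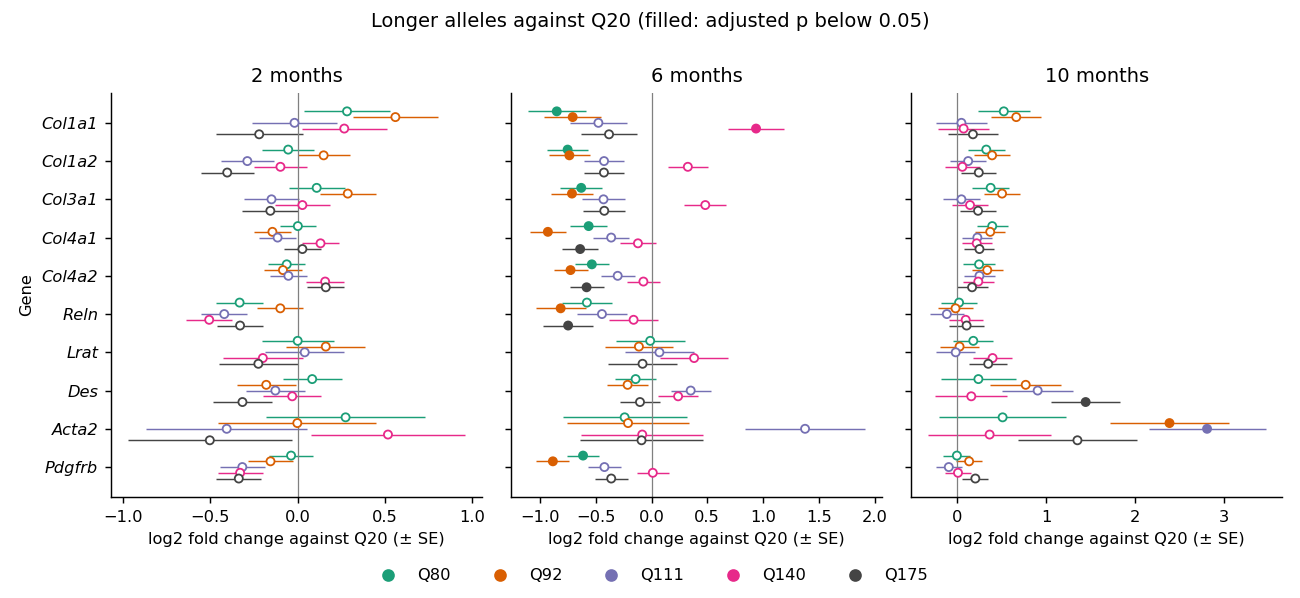
Differences of each longer allele from Q20 for the 10 genes at each age, on the log2 scale with SE, and filled symbols where edgeR's adjusted p was under 0.05. The comparisons at one age share the 8 Q20 libraries. At 6 months Q80 and Q92 lie below 0 for the collagens and Pdgfrb, and at 10 months Acta2 reaches 2.81 in Q111.

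The Q20 group itself was above the wild type at 6 months, for 7 of the 10 genes and below it for 0, against 32.2% of all genes called in either direction and 17.9% called higher. Col4a2 had 9.19 to 20.2 CPM in the wild type and rose by 0.97 ± 0.15 in Q20, with 7 of 8 wild-type libraries below all of Q20. Col4a1 rose by 0.91 ± 0.16, Col1a1 by 0.99 ± 0.26, Col1a2 by 0.72 ± 0.18, Col3a1 by 0.60 ± 0.19, Reln by 0.77 ± 0.22 and Pdgfrb by 0.65 ± 0.15. For Reln, limma on log2(FPKM + 0.1) gave 0.33 (adjusted p = 0.209). Without the 3 Q20 females of high Kupffer cell RNA the calls for Col3a1 (0.55, adjusted p = 0.0581) and Reln (0.62, adjusted p = 0.0767) were lost. Within 1 sex the Col3a1 call was lost in each, that for Col1a1 in females, and those for Col1a2, Reln and Pdgfrb in males. Des had 3.64 to 4.54 CPM in Q20 and 2.51 to 3.32 CPM in the wild type. All 8 wild-type libraries lay below all of Q20, yet the difference of 0.41 ± 0.18 was not called (edgeR adjusted p = 0.0806). It was called with limma on log2(FPKM + 0.1) (0.47, adjusted p = 0.0277), with only the 2 groups compared (0.39, adjusted p = 0.000908) and without the libraries of high Krt19 (0.41, adjusted p = 0.00553). Since the 6-month wild type carries another index series than Q20, genotype and library set cannot be told apart in this comparison. At 2 and 10 months none of the 10 genes was called between Q20 and the wild type, against 0% and 0.0127% of all genes. At either age 0 had an unadjusted p under 0.05, against 3.30% and 2.31% of all genes. DESeq2 called none at 2 or 10 months.

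Several of the 6-month calls against Q20 were lost without the 3 Q20 females of high Kupffer cell RNA. Without these 3, Q92 kept Col4a1 and Pdgfrb below Q20, and Q80, Q140 and Q175 kept no call. The differences themselves changed less, for example in Q80 to -0.87 (adjusted p = 0.157) for Col1a1 and -0.71 (adjusted p = 0.0978) for Col1a2, with 5 Q20 libraries left. In males alone, with 4 libraries a group, no gene was called in Q80, Q92 or Q140. Of 10 Kupffer cell markers 9 were lower than in Q20 in each of Q92, Q140 and Q175, and 2 in Q80. Of 10 sinusoidal endothelial markers 6 were lower in Q92 and 4 in Q175, and 8 of each list were higher in Q20 than in the wild type. The summed Kupffer markers ran from 341 to 1114 CPM in Q20 (median 528), 241 to 516 CPM in Q92 (median 362) and 260 to 495 CPM in Q80 (median 450). Their part in the collagen and stellate cell values was not tested.

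Other genes of these roles were counted in the same 6-month comparisons. In Q92, 12 of 27 genes of fibrillar collagen assembly were lower and 1 higher (median -0.44, against -0.01 over all genes), 9 of 17 of the basement membrane were lower and 0 higher (median -0.70), and 12 of 25 of quiescent stellate cells were lower and 0 higher (median -0.45). Pcolce, which enhances procollagen processing, fell by 0.73 ± 0.12, and Sparc, a collagen-binding matrix protein, by 0.68 ± 0.14. Lamb1, a laminin chain, fell by 0.77 ± 0.17, and Pxdn, which cross-links type IV collagen, by 0.85 ± 0.20. Pdgfra fell by 0.80 ± 0.17 and Dcn by 0.62 ± 0.14. In smooth muscle 3 of 15 genes were lower, among them Flna with -0.60 ± 0.13, in fibrogenic signalling 6 of 25 were lower and 1 higher, and in retinoid handling 1 of 17 was lower and 3 higher.

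The counts in Q80 were 12 of 27 lower and 1 higher for collagen assembly (median -0.45), 4 of 17 lower for the basement membrane, 4 of 25 lower for quiescent stellate cells, 4 of 15 lower for smooth muscle and 4 of 25 lower for fibrogenic signalling. In Q175, with the same lists in the same order and of the same sizes, 6, 2, 5, 3 and 4 were lower. Of all genes 5.58% were called lower in Q80 and 6.45% in Q175. In Q140, where Col1a1 rose, the collagen assembly list had a median of 0.10 with 1 gene lower, Plod1, and 0 higher, and in fibrogenic signalling 1 gene of 25 was higher. That gene was Pdgfc, a ligand for platelet-derived growth factor receptors. Of all genes 2.69% were called higher in Q140 and 5.98% in either direction. Between Q20 and the wild type, 15 of 27 collagen assembly genes, 13 of 17 basement membrane genes and 12 of 25 quiescent stellate cell genes were higher and none lower. Of all genes 17.9% were called higher in that comparison. Hspg2, which encodes the basement membrane proteoglycan perlecan, rose there by 1.29 ± 0.20 and Lamb2, a laminin chain, by 0.98 ± 0.14.

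At 10 months the members called between genotypes were the muscle genes Acta2 and Des, each very high in a few libraries. Slopes on repeat length were called for 0 of the 10 genes by edgeR, against 0.595% of all genes in either direction. An unadjusted p under 0.05 was found for 2 of the 10, against 10.6% of all genes. For Reln the group medians ran from 60.2 CPM in Q111 to 72.2 CPM in Q140, with 61.9 CPM in Q20. For Col1a1 they ran from 3.29 CPM in the wild type to 5.69 CPM in Q92. The slope of Reln was 0.05 ± 0.10 (adjusted p = 0.901) and that of Des 0.77 ± 0.25 (adjusted p = 0.218). None of the 10 was called in Q80 or Q140, against 0.0127% and 0.00637% of all genes. At an unadjusted p under 0.05 were 1 and 0 of the 10, against 6.76% and 3.98% of all genes. DESeq2 called none of the 10 in these comparisons either. The differences of single alleles from Q20 were not tested between ages. The slopes differed between 10 and 6 months for 0 of the 10 by edgeR, against 4.17% of all genes in either direction. For this difference 4 of the 10 had an unadjusted p under 0.05, against 16.2% of all genes.

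Acta2 was higher in Q92 and Q111 than in Q20 at 10 months, the only member called in each, against 4% of all genes called in either direction in Q92 (2.02% higher) and 1.11% in Q111 (1.03% higher). All 8 Q20 libraries held 1.03 to 2.36 CPM. In Q92 the females F1, F2, F3 and F4 had 9.40, 1.21, 15.3 and 42.0 CPM, and the 4 males 2.20 to 3.22 CPM. In Q111 F2 had 23.0 CPM and M3 52.9 CPM, and the other 6 libraries held 1.31 to 3.61 CPM. So 6 of 8 in Q92 and 5 of 8 in Q111 lay above all of Q20, but the size came from a few libraries. The fitted rise was 2.38 ± 0.66 in Q92 (edgeR adjusted p = 0.0302) and 2.81 ± 0.66 in Q111 (adjusted p = 0.0149). With limma on log2(FPKM + 0.1) the differences were 1.47 (adjusted p = 0.151) and 1.37 (adjusted p = 0.383), and with only the 2 groups compared 2.08 (adjusted p = 0.0803) and 2.66 (adjusted p = 0.287). The Q92 call was lost without any one of the Q20 libraries F1, F3 or M3 (adjusted p 0.0502 to 0.0680).

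Of these high libraries, F3 and F4 of Q92 and F2 and M3 of Q111 were among the 8 with high Krt19. Without those, Acta2 differed by 1.03 in Q92 (adjusted p = 0.301) and by 0.53 in Q111 (adjusted p = 0.813). Over all groups the 8 Krt19 libraries had 2.92 to 52.9 CPM of Acta2 with a median of 19.2 CPM, and the other 159 had 0.586 to 19.8 CPM with a median of 1.99 CPM. Des had medians of 8.57 and 3.36 CPM in the same libraries, and the smooth muscle myosin gene Myh11 20.1 and 2.82 CPM. Dmbt1, a gene of mucosal epithelium such as the gallbladder's, was at 2130 CPM in Q111 M3 and at 0 in 104 libraries, while the mucin gene Muc5b was at 0 in 153 and Gkn3 in 110. Reln had medians of 61.1 CPM in the 8 and 65.0 CPM in the other 159. The part of such RNA in the Acta2 calls was not tested. The libraries left out hold the highest Acta2 values of both groups, so the loss of the calls cannot decide it. Of the 8 Krt19 libraries, 4 lay above all the other 159 in Acta2. Q111 F4 of 10 months, also among the 8, had 2.92 CPM of Acta2 with 431 CPM of Dmbt1. Q175 F4 of 10 months, not among them, had 19.8 CPM of Acta2 with 2.35 CPM of Krt19. That Q175 library also held 22.3 CPM of Dmbt1, 20.5 CPM of Myh11 and a skeletal muscle sum of 35.3 CPM.

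**Figure D4:**
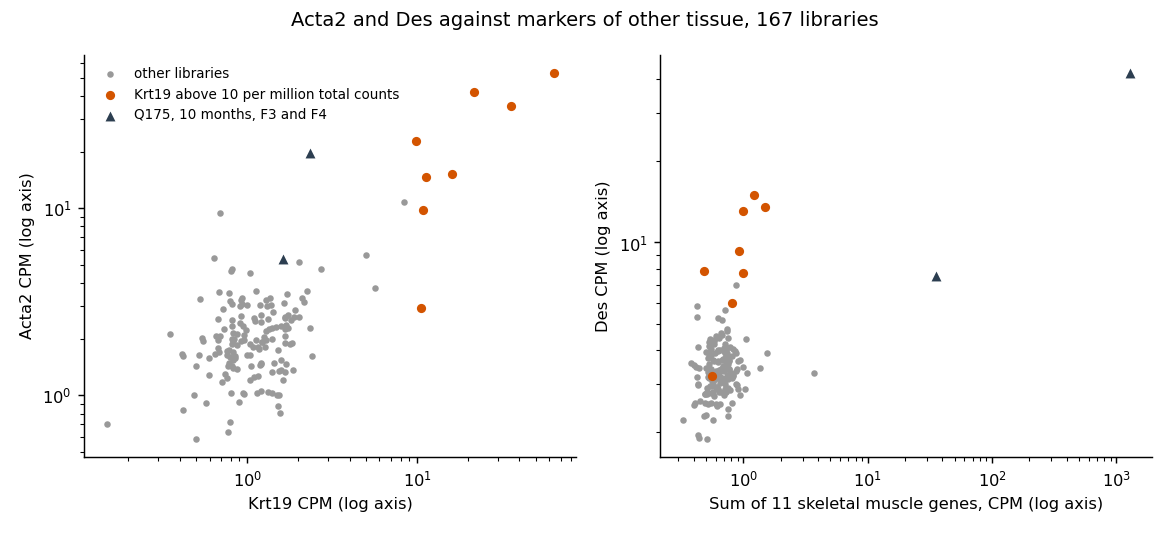
Acta2 against Krt19 (left) and Des against the sum of 11 skeletal muscle genes (right) in all libraries, in CPM on log axes, with the 8 libraries of high Krt19 and the Q175 females F3 and F4 of 10 months marked. The highest Acta2 values, up to 52.9 CPM, are in libraries of high Krt19, and the highest Des value, 42.2 CPM, is in the library with a muscle sum of 1289 CPM.

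Some other smooth muscle genes were also called, against 2.02% of all genes called higher in Q92 and 1.03% in Q111. In Q92, 4 of 16 were higher and 0 lower, with a list median of 1.01 against 0.01 over all genes. They were Tagln, Myl9, Cnn1 and Actg2, genes of the smooth muscle contractile apparatus, and Cnn1 (calponin) rose by 3.49 ± 0.97. In Q111, 3 of 16 were higher, Cnn1 by 4.11 ± 0.93, Actg2 by 3.80 ± 0.92 and Myh11 by 2.27 ± 0.56. Over all libraries Cnn1 and Actg2 had medians of only 0.097 and 0.136 CPM, so their rises start from very low counts. Cnn1 was highest in the libraries that led for Acta2, with 7.26 CPM in Q92 F4 and 8.29 CPM in Q111 M3. The smooth muscle calls are thus no separate support for the Acta2 calls. In collagen assembly 1 of 27 genes was lower in Q92 and 0 called in Q111, and 0 of 25 quiescent stellate cell genes was called in either. Of 4 markers of the gallbladder mucosa, the 2 that passed the low-count filter were higher in each. The sum of the 4 had medians of 1.18 CPM in Q92, 1.49 CPM in Q111 and 0.719 CPM in Q20. Its highest libraries held 395, 2193 and 1.28 CPM. These calls thus come from a few libraries and are no separate support.

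Des was higher in Q175 than in Q20 at 10 months, the only one of the 10 called there, against 1.26% of all genes in either direction and 0.924% higher. The female F3 had 42.2 CPM and F4 7.53 CPM, the other 6 Q175 libraries 2.75 to 3.97 CPM, and Q20 1.90 to 3.97 CPM. Apart from those 2 libraries the groups thus overlapped. The fitted rise was 1.44 ± 0.39 (edgeR adjusted p = 0.0457), and without F3 it was 0.40 (adjusted p = 0.633). F3 was the library with 271 CPM of the skeletal muscle actin gene Acta1, and F4 also held skeletal muscle RNA. Without the libraries with muscle or blood RNA the difference was 0.14 (adjusted p = 0.958). Desmin is a protein of skeletal as well as smooth muscle, and 5 of 5 tested skeletal muscle markers were higher in Q175. The skeletal muscle sum had medians of 0.757 CPM in Q175 and 0.623 CPM in Q20 at 10 months. Its highest libraries held 1289 and 1.07 CPM. These marker calls thus come from a few libraries and are no separate support. The part of muscle RNA in the Des call was not tested. The call was also lost when any 1 of the 8 Q20 libraries was left out (adjusted p 0.0614 to 0.102) and with replicate number as a block (1.21, adjusted p = 0.102).

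Across ages, the slope of Des on repeat length at 10 months exceeded that at 2 months by 0.97 ± 0.25 (edgeR adjusted p = 0.0311), the only such difference among the 10 genes, against 1.05% of all genes in either direction. Without the Q175 libraries with muscle or blood RNA, left out after seeing the data, the difference was 0.30 (adjusted p = 0.647), and limma on log2(FPKM + 0.1) gave 0.60 (adjusted p = 0.108). Without the libraries of high Krt19, also left out after seeing the data, the Des slope at 10 months exceeded that at 6 months by 0.76 (adjusted p = 0.0109). For the other members no difference between ages in the slope was called. Of all genes 0.204% were called for 6 against 2 months and 4.17% for 10 against 6 months. No difference between ages in the effect of sex was called for any of the 10, with the shares of all genes given below.

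Between 4 and 6 of the 10 genes were called between the sexes at each age, with libraries of the sexes overlapping. Type IV collagen genes were lower in females, and Des was higher in females. Of the 10 genes, 4 were higher and 2 lower in females at 2 months, 3 and 3 at 6 months and 2 and 2 at 10 months, against 57.6%, 60.9% and 57.2% of all genes called in either direction, so the number called is near the background. Of all genes 29.8%, 31.4% and 30% were higher in females and 27.7%, 29.5% and 27.2% lower. Col4a2 had a mean of 17.1 CPM in 27 females and 23.0 CPM in 29 males at 2 months, and was lower in females (-0.43 ± 0.06 on the log2 scale). The 6-month means of 17.4 and 24.2 CPM gave -0.50 ± 0.08, and those of 10 months, 13.1 and 19.4 CPM, gave -0.56 ± 0.09. The female mean was below the male mean in 21 of 21 groups of genotype and age, although single libraries of the sexes overlapped. Col4a1 had a lower female mean in 20 of 21 groups, with differences of -0.23 ± 0.06, -0.35 ± 0.09 and -0.39 ± 0.09 at the 3 ages.

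Des was higher in females at all 3 ages, Reln and Lrat at 2 of them and Pdgfrb at 1. Reln was higher in females at 2 months by 0.30 ± 0.07 and at 6 months by 0.35 ± 0.12, but at 10 months differed by 0.05 ± 0.10 (edgeR adjusted p = 0.688), where limma on log2(FPKM + 0.1) called it with 0.29. Lrat was higher at 6 months by 0.40 ± 0.17 and at 10 months by 0.28 ± 0.12, and with the 3 Kupffer-rich Q20 females removed the 6-month difference was 0.30 (adjusted p = 0.134). With no low-count filter the 10-month difference of Lrat was 0.27 (adjusted p = 0.0647). Des was higher by 0.21 ± 0.09, 0.32 ± 0.10 and 0.62 ± 0.22, and had the higher female mean in 19 of 21 groups. The 10-month value for Des fell to 0.31 (adjusted p = 0.0715) without the libraries with muscle or blood RNA, and the 2-month value to 0.10 (adjusted p = 0.245) without those of high Krt19. The 2-month call for Des was also lost without the library labelled male that did not match its label (0.20, adjusted p = 0.0502) and with no low-count filter (0.21, adjusted p = 0.0566), while the other 5 calls of that age stood without that library. Col1a2 (0.27 ± 0.08) and Pdgfrb (0.17 ± 0.07) were higher at 2 months, although the female mean of Pdgfrb at 10 months was the lower one (8.54 against 9.02 CPM, not called). Col1a1 was lower in females at 6 months (-0.43 ± 0.14). That Col1a1 difference was -0.27 (adjusted p = 0.0638) with limma on log2(FPKM + 0.1). No difference between the sexes was called to change with age for any of the 10. Of all genes 0.464% (6 against 2 months), 1.92% (10 against 2) and 0.167% (10 against 6) were called. An unadjusted p under 0.05 was found for 0, 3 and 1 of the 10, against 11.5%, 16.6% and 9.80% of all genes. The slope on repeat length at 10 months was called to depend on sex for 0 of the 10, against 0.173% of all genes. For that test 4 of the 10 had an unadjusted p under 0.05, against 15.6% of all genes.

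**Figure D5:**
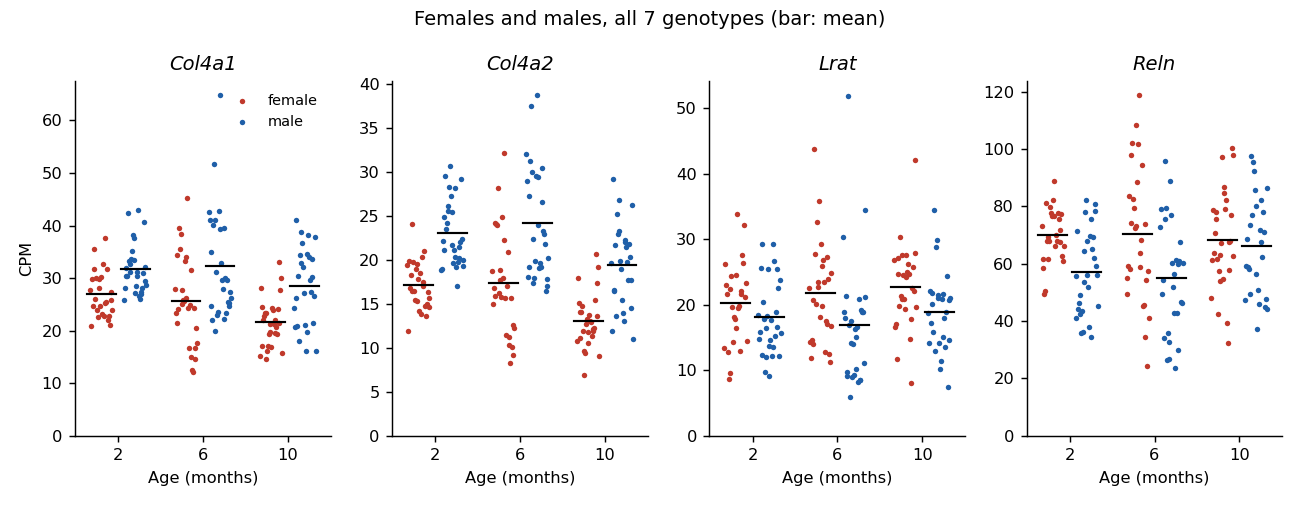
Levels of Col4a1, Col4a2, Lrat and Reln in CPM for females and males at 2, 6 and 10 months over all 7 genotypes, with 1 point per library and the mean as a bar. The female means of Col4a1 and Col4a2 are lower at each age (17.1 against 23.0 CPM for Col4a2 at 2 months), and the points of the sexes overlap.

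Among 25 other genes of quiescent stellate cells, 23 were higher in females at 2 months and 0 lower, 23 and 1 at 6 months, and 17 and 1 at 10 months. At 6 months Ecm1, an extracellular matrix protein of stellate cells, was higher by 0.52 ± 0.07, Hand2, a transcription factor of these cells, by 0.56 ± 0.08, and Cxcl12, a chemokine, by 0.38 ± 0.05. Kupffer cell markers were also higher in females, 10, 10 and 9 of 10 at the 3 ages, as were 9, 6 and 2 of 10 sinusoidal endothelial markers, and their part in the stellate cell values was not tested. In the basement membrane list the minor type IV chain genes Col4a3 (1.68 ± 0.20) and Col4a5 (0.94 ± 0.11), the latter X-linked, were higher in females at 6 months. Among fibrillar collagens Col5a3 was lower in females (-3.09 ± 0.10 at 6 months), and in the reelin pathway the receptor gene Vldlr was higher (3.43 ± 0.15).

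Over the knock-in libraries of all lengths, Col1a1 had a mean of 4.72 CPM (SD 1.85, n = 48) at 2 months, 6.83 CPM (SD 4.58, n = 48) at 6 months and 4.59 CPM (SD 1.89, n = 47) at 10 months. It rose from 2 to 6 months by 0.48 ± 0.13 and fell from 6 to 10 months by 0.50 ± 0.13. Without the Q140 libraries of 6 months, left out after seeing the data, these were 0.21 (adjusted p = 0.166) and -0.24 (adjusted p = 0.0972). From 2 to 6 months 3 of the 10 genes were called, all higher, with Des (0.36 ± 0.13) and Pdgfrb (0.28 ± 0.07) beside Col1a1, against 53.1% of all genes in either direction and 27.7% higher. The Des call was also lost without the Q140 libraries (0.27, adjusted p = 0.106). In the wild type these 3 genes had the opposite sign, with -0.56 for Col1a1, -0.30 for Des and -0.16 for Pdgfrb, none of them called.

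Among the knock-ins the type IV collagen genes had their lowest means at 10 months. Col4a2 had means of 20.4, 21.9 and 16.2 CPM at 2, 6 and 10 months, and fell by 0.32 ± 0.07 from 2 to 10 months. Col4a1, with 29.6, 30.3 and 25.1 CPM, fell by 0.23 ± 0.07 between the same ages. Acta2 rose by 0.79 ± 0.26 and Des by 0.48 ± 0.13, which makes 2 higher and 2 lower of the 10, against 22.8% of all genes in either direction, 13.4% higher and 9.37% lower. The medians of Acta2 were 2.05 and 2.20 CPM at these ages against means of 2.58 and 5.43 CPM. Without the high Krt19 libraries the Acta2 difference was 0.21 (adjusted p = 0.440) and that of Des 0.31 (adjusted p = 0.0537). Without the libraries with muscle or blood RNA they were 0.62 (adjusted p = 0.0801) and 0.24 (adjusted p = 0.0725), and limma on log2(FPKM + 0.1) gave 0.42 (adjusted p = 0.135) and 0.26 (adjusted p = 0.0591). In the wild type both had the opposite sign, -1.04 for Acta2 and -0.21 for Des, not called. From 6 to 10 months 1 gene, Acta2, was higher and 4 lower (Col1a1, Col1a2, Col4a1 and Col4a2), against 54.4% of all genes in either direction, 28.8% higher and 25.6% lower. Without the Q140 libraries of 6 months Col1a2 differed by -0.13 (adjusted p = 0.219). In the 8 wild-type libraries of each age none of the 10 was called, and Col4a1 and Col4a2 differed from 6 to 10 months by 0.23 (adjusted p = 0.390) and 0.21 (adjusted p = 0.480), opposite in sign to the knock-ins. Among the knock-ins the comparisons with 6 months are also comparisons of index series, so age and library set cannot be told apart in them. The indexed libraries of 2 and 10 months, and the indexed wild types of all 3 ages, carry 1 series.

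Within groups the highest correlations from library to library were among the fibrillar and among the type IV collagen genes. Over the libraries of all 21 groups, in log2 CPM after removing the mean of each genotype, age and sex, Col4a1 and Col4a2 had a Pearson r of 0.926 and a Spearman rho of 0.905. Col1a2 and Col3a1 reached 0.922 and 0.910, and Col1a1 and Col1a2 0.909 and 0.902. These are descriptions, since libraries share RNA content, depth and marker levels. Leaving out the 2 libraries farthest from the median gave 0.923, 0.918 and 0.903 for the 3 pairs, and within single ages Col4a1 and Col4a2 had 0.916, 0.934 and 0.930. Reln followed Col4a1 (0.653) and Pdgfrb (0.551) more than Acta2 (-0.098). Des and Acta2 had an r of 0.701 but a rho of 0.485, and an r of 0.622 over 156 libraries without the 11 of high Krt19, muscle or blood RNA. Acta2 and Pdgfrb had an r of 0.025.

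Among 10879 other genes that averaged 1 or more in log2 CPM, those most like each member by the same measure over all libraries differed between the roles. For Col1a1, Col1a2 and Col3a1 the first was Col6a2, a type VI collagen chain (r 0.832, 0.867 and 0.810). For Col4a1 it was Sparc (0.826), followed by Nid1 (0.824), which encodes the basement membrane protein nidogen, and for Col4a2 Nid1 was also close (0.737). For Reln it was Abcc9 (0.901), then Hgf (0.889), the gene of hepatocyte growth factor, and for Lrat it was Cyp26b1 (0.820), which encodes an enzyme that breaks down retinoic acid. For Acta2 it was Myh11 (0.931), then Tagln (0.862) and Myl9 (0.852). For Des it was Tpm1 (0.758), which fell to 0.524 without the same 11 libraries, and for Pdgfrb it was Col5a1 (0.767), a type V collagen chain.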

How the data were processed

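Whole-liver polyadenylated RNA was sequenced. Per the submitters' processing notes CASAVA 1.8.2 was used; no label or header names an aligner, quantifier, build or annotation. The authors deposited expected counts per gene, estimated from their reads, with 14.1% of the values not whole. FPKM values per gene, scaled by length and depth, were also deposited by the authors. Totals of 32025244 to 57151736 counts per library set the precision. Libraries were grouped by genotype, age and sex as labelled, and no label gives a pooling of animals; p-values measure the spread between these libraries. Counts were rounded and tested with edgeR 4.0.16 (R 4.3.3): TMM scaling, its low-count filter, a quasi-likelihood fit within each age with genotype (or repeat length per 100 repeats) and sex, and Benjamini-Hochberg adjustment over all genes tested, with a threshold of 0.05. SE is the log2 change divided by the root of F. Ages were compared in 1 fit over all knock-in libraries. FPKM gave levels per length and, as log2(FPKM + 0.1) or log2(FPKM + 1), limma 3.58.1 alternatives; DESeq2 1.42.0, no filter, sex alone, left-out libraries, index set and a replicate block were others. Correlations used 100000 permutations over 45 pairs.

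The fit was tested on simulated data. For Q175 against Q20 at 10 months (15680 genes) it recovered 32% of genes changed 1.25-fold, 64% at 1.5-fold, 94% at 2-fold and 100% at 4-fold, with 11 false calls of 156. For the slope at 10 months (15614 genes) it recovered 58%, 90%, 98% and 98% at these folds per 100 repeats. There 17 of 189 calls were false. All 10 members were named; in each list up to 4 called genes with the smallest p, otherwise up to 2, were eligible to be named, and up to 5 most alike genes per member. Gpc6 falls outside this rule and was named after its values were seen. The members and lists were chosen with earlier results of these data known.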

Additional observations from a re-analysis of the deposited data

Results flagged for a closer look

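In 14 of 210 groups of gene, genotype and age, 1 library lay apart from the others of its group by the gap relative to the group's range; chance alone gives about 1 in 20 groups. For Des these were 7.85 CPM in the wild-type female F3 of 2 months, 6.94 CPM in the Q80 male M4 and 5.99 CPM in the Q140 female F1 of 2 months, 15 CPM in the Q111 female F1 and 2.22 CPM in the Q175 male M1 of 6 months, and 42.2 CPM in the Q175 female F3 of 10 months. For Acta2 they were 14.7 CPM in the wild-type female F3 of 2 months and 35.3 CPM in the Q111 female F1 of 6 months. The wild-type F3, the Q140 F1 and the Q111 F1 are among the 8 libraries of high Krt19, and the Q175 F3 is 1 of 2 with skeletal muscle RNA; the part of that RNA in the values was not tested.

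For Pdgfrb the low libraries were the wild-type female F3 of 2 months with 6.41 CPM and the Q20 male M3 of 10 months with 4.09 CPM. Reln was low in the Q92 female F1 of 10 months with 32.3 CPM, and Lrat was low in the Q175 male M1 of 10 months with 13 CPM. The collagen genes were high in 1 library each, Col1a2 with 16.2 CPM in the Q92 female F4 of 10 months and Col3a1 with 30.4 CPM in the Q80 male M4 of 6 months.

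The slope of Des on repeat length was greater at 10 than at 2 months by 0.97 on the log2 scale per 100 repeats, by a test of the difference between ages.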

How the results depend on the processing

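Of 806 alternative values of the 56 called differences, 663 kept their direction and call, 133 lost the call and 10 reversed; 11 further differences were called only under an alternative. Without 3 Q20 females (F1, F3, F4), the number of the 10 genes called at 6 months was 0 in Q80, Q140 and Q175 and 2 in Q92. In males alone it was 0 in Q80, Q92 and Q140 and 3 for Q20 against the wild type, and in females alone 1 in Q80, 0 in Q175 and 1 in Q111. For Q140 it was also 0 with limma on log2(FPKM + 0.1) and with only the 2 groups compared. At 10 months the counts for Q92, Q111 and Q175 fell to 0 with limma under both pseudocounts, with only the 2 groups compared and in males alone, for Q111 and Q175 also in females alone, for Q92 and Q111 without libraries of high Krt19, and for Q175 without those with muscle or blood RNA and with index set as a covariate. The count from 2 to 10 months was 2 with limma under both pseudocounts and without libraries with muscle or blood RNA, and the difference of slopes between 10 and 2 months had 0 with limma on log2(FPKM + 0.1). In the wild type alone the age comparisons had 0. Chosen after seeing the data, leaving out the Q140 libraries gave 1 for the 6-month slope, 1 from 2 to 6 months and 3 from 6 to 10 months, leaving out the Q140 libraries F2 and M3 gave 0 for Q140, leaving out muscle or blood RNA gave 0 for the slope difference between 10 and 2 months, and leaving out high Krt19 gave 1 for that between 10 and 6 months. The cause was not tested.

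Each Q20 and Q175 replicate was left out in turn, and at 6 months, chosen after seeing the data, each Q140 replicate. No single replicate of Q80, Q92 or Q111 was left out, so F2 and M3 of Q111 at 10 months stayed in throughout. At 6 months these runs gave 0 to 1 genes in Q140, 2 to 3 in Q175, 2 to 6 in Q80 and 6 to 7 in Q92. At 10 months they gave 0 to 1 in Q92 and Q175 and 1 to 1 in Q111. They gave 0 to 0 for the slopes and the other comparisons so run. With replicate number as a block the Q175 count at 10 months was 0. Same-numbered Q175 and Q20 libraries gave no clear sign of deviating together. The correlation was over 0.1 in 0, 2 and 1 of 8 pairs at 2, 6 and 10 months. Between libraries of different genotypes and the same sex, the mean at 6 months was 0.032 for same-numbered pairs and -0.011 for others. A weak pairing by number is thus not excluded.

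The sign reversed for the Reln slope at 6 months without Q20 (0.10), and for Acta2 in Q111 at 6 months in males (-0.78) and without high Krt19 (-0.59), and in its sex difference at 6 months without the 3 Q20 females (0.078). In the wild type alone it reversed from 2 to 6 months for Col1a1 (-0.56), Des (-0.30) and Pdgfrb (-0.16), from 2 to 10 months for Des (-0.21) and Acta2 (-1.04), and from 6 to 10 months for Col1a1 (0.024), Col1a2 (0.000484), Col4a1 (0.23), Col4a2 (0.21), Acta2 (-0.32) and Pdgfrb (0.21). Depth limits Acta2 most, with as few as 20 counts in a library.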
